A study of Mus musculus with 6 samples.

Results

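The S100 genes encode small calcium-binding proteins of the EF-hand type, and 10 of them (S100a1, S100a4, S100a6, S100a8, S100a9, S100a10, S100a11, S100a13, S100a16 and S100b) were taken by gene name from the 23934 genes of a deposited table of normalized read counts. The table describes RNA of sorted mouse skin cells at day 50 in 3 Zfp750 knockout libraries (S5, S6, S7) and 3 control libraries (S2, S3, S4), named after the numbers in the table's headers. The question was how transcript levels of this family differed between the genotypes. All mice received 4-hydroxytamoxifen from day 4 to 7 or from day 5 to 8 of age, and all carried 1 copy of a tamoxifen-activated recombinase driven by Lrig1, a gene of the upper hair follicle, so both the drug and the recombinase are shared by the groups. Knockout samples were ZNF750 fl/fl and Rosa26 -/- with Lrig1-CreER +/- in 1 sample and Lrig1-CreERT2 +/- in the other 2. Of the control samples, 1 was ZNF750 wt/fl, Rosa26 -/- and Lrig1-CreERT2 +/-. Another was ZNF750 wt/wt, Rosa26 +/- and Lrig1-CreERT2 +/-, and the last was ZNF750 wt/fl, Rosa26 -/- and Lrig1-CreER +/-. The cells are described as sorted from mice expressing the red fluorescent protein tdTomato. That reporter often sits at Rosa26, which 5 of the 6 samples list as -/-, and how the cells came by tdTomato cannot be read from the labels. ZNF750 is the human name of Zfp750, which encodes a transcription factor needed for differentiation of the epidermis.

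S100 proteins work mostly as dimers that change shape on binding calcium and then attach to partner proteins such as annexins, myosin heavy chains and signalling proteins. Some are also released from cells and act on surface receptors, among them the receptor for advanced glycation end products (Ager) and Toll-like receptor 4 (Tlr4). In skin, S100a8 and S100a9 form calprotectin, which neutrophils store in bulk and which keratinocytes of human psoriasis produce. Most S100 genes lie together in the epidermal differentiation complex beside genes of the cornified envelope.

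Estimated library depth was 16940656 to 20222372 reads in knockout libraries and 15310161 to 20705441 reads in control libraries. Zfp750 stood at normalized counts of 4.90, 1.82 and 7.16 in knockouts S5, S6 and S7, against 41.9, 3.75 and 314 in controls S2, S3 and S4. Control S3 thus lay inside the knockout range, so the label of this library has no check from Zfp750. The libraries also differed in the cells they held: the basal keratinocyte gene Krt5 was at 1164, 885 and 8559 in S5, S6 and S7, against 2503, 62.5 and 11805 in S2, S3 and S4. Fibroblast transcripts were the most abundant of the marker lists in every library, with 8 genes summing to 924757 to 1223950 in knockouts and 2988990 to 8923440 in controls. The 3 collagen genes Col1a1, Col1a2 and Col3a1 made up 82.8% to 86.9% of that sum in knockouts and 93.8% to 95.9% in controls, and the other 5 genes summed to 133893 to 190673 in knockouts and 153700 to 363442 in controls, which overlap. At adjusted p under 0.05 in the fit described below, 1 of 8 tested fibroblast genes (Pdgfra), 1 of 9 macrophage and monocyte genes (Plac8), 1 of 5 fat cell genes (Cfd) and 3 of 7 mast cell genes (Fcer1a, Tpsab1 and Tpsb2) were higher in the knockout. Of 13 keratinocyte genes 1 (Krt10) and of 7 skeletal muscle genes 1 (Des) were lower, and 0 of 8 T cell, 8 Schwann cell, 4 melanocyte, 5 endothelial and 2 dendritic cell genes were called. Over all tested genes the same fit called 4.12% higher and 2.59% lower. Cfd, Fcer1a and Tpsab1 passed the filter on low values only through the 3 knockout libraries, where they were high, so their counts support nothing. The call of Plac8 held without any 1 library (adjusted p at most 0.0278), whereas those of Pdgfra, Krt10, Des, Cfd, Fcer1a and Tpsb2 were each lost without at least 1 library. In bulk RNA, fewer cells of a type and less RNA per cell cannot be told apart.

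In the table's own coordinates, for which no genome build is named, 9 of the 10 genes lie on chromosome 3 and S100b lies on chromosome 10. S100a1, S100a13, S100a16, S100a4, S100a6, S100a8 and S100a9 follow each other between positions 90418341 and 90603029. S100a11 and S100a10 lie at 93427795 to 93433595 and 93462387 to 93471951, on the far side of the complex. The promoters of S100a8 and S100a9 are shown because these were the pair of neighbours with higher values in all knockout libraries. They are the 250 bases before the RefSeq transcription start in GRCm38.p6, 5′ to 3′ on each gene's own strand, S100a8 at chr3:90668821-90669070 on the plus strand and S100a9 at chr3:90695722-90695971 on the minus strand. Capitals mark matches to the reported ZNF750 motif CCNNAGGC in S100a8 and to the C/EBP motif TTGCNNAA in S100a9.
S100a8: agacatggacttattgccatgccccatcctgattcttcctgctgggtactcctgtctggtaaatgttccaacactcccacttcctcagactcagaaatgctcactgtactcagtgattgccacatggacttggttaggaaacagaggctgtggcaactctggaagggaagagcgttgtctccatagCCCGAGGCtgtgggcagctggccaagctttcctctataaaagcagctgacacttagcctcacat
S100a9: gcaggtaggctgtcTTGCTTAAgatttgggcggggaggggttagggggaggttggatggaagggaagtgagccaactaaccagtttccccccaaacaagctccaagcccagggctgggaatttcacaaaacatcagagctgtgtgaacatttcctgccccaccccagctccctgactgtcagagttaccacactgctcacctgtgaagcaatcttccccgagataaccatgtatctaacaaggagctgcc

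Both strands were searched for CCNNAGGC, the AP-1 motif TGANTCA and TTGCNNAA. Among 32851 RefSeq promoter windows of this length, 20.4% held CCNNAGGC, 6.75% held TGANTCA and 9.56% held TTGCNNAA. Of the 9 members with a promoter entry, 4 held CCNNAGGC (S100a8, S100a11, S100a16 and S100b), 2 held TGANTCA (S100a11 and S100a16) and 1 held TTGCNNAA (S100a9). S100a10 had no entry. The match in S100a8 lay 64 to 57 bases before the start, and the match in S100a9 lay 236 to 229 bases before it.

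Among the S100 members, 0 changed between knockout and control in the limma fit across all genes at an adjusted p under 0.05, and 0 did in the fit without a filter on low values. Of the 10, 8 passed that filter, which asks for 1 part in 1000000 of the library total in at least 3 libraries, and S100a8 and S100a9 did not. The same test called 6.71% of the 15935 genes tested, 4.12% higher and 2.59% lower in the knockout. At an unadjusted p under 0.05 there were 2 members, S100a10 and S100b, both lower in the knockout, where 23.2% of all tested genes had such a p. The groups did not overlap for 4 of the 8 tested members, S100a11 with higher and S100a10, S100a16 and S100b with lower knockout values, against 28.8% of all tested genes. The median log2 fold change of the 8 tested members was -0.23, beside 0.014 over all tested genes. The 95% intervals of S100a10 (-1.14 to -0.10) and S100b (-1.54 to -0.029), which are not adjusted for the number of genes, did not include a log2 fold change of 0, and that of S100a4 (-0.87 to 1.01) was the widest of those that did. The summed normalized count of the 10 members was 8295 ± 1018 in knockouts and 9454 ± 1940 in controls (SD, n = 3 each), and the 2 ranges overlapped. Per 1000000 of the library total it was 515 ± 49.9 in knockouts and 472 ± 110 in controls, so the order of the means turned with that scaling.

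**Figure D1:**
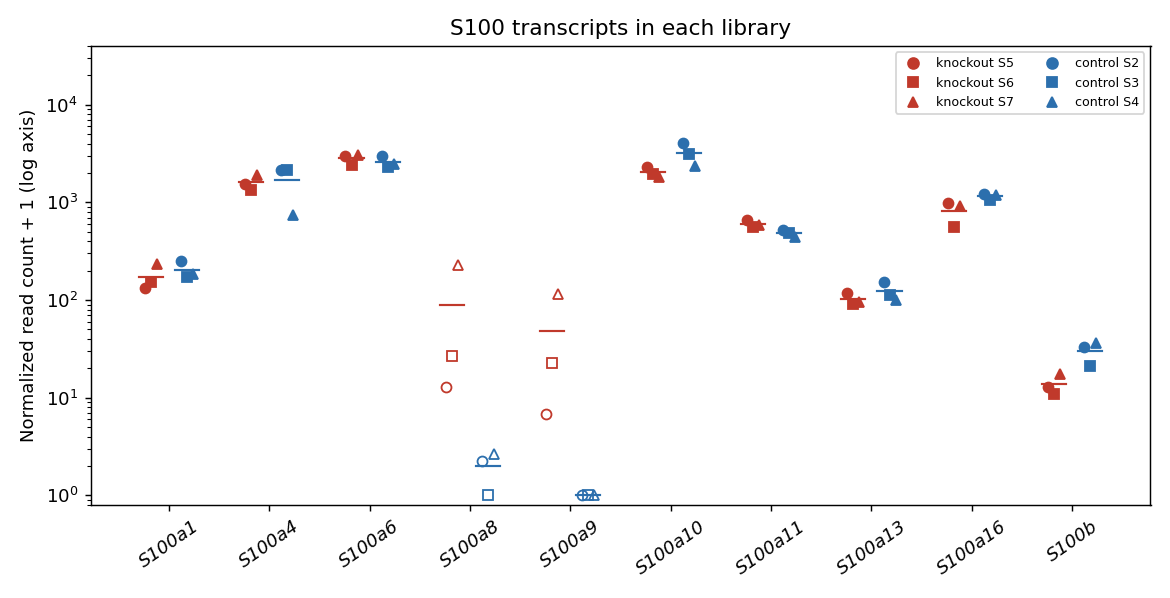
Normalized read count plus 1 on a log axis for the 10 S100 genes in each knockout (red) and control (blue) library, with the group mean as a line; open symbols are genes below the filter on low values. S100a8 and S100a9 stand at 11.8 to 225 and 5.88 to 115 in knockouts and at 0 to 1.68 and 0 in controls, while the other 8 genes differ by less than 3-fold in their means.

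The calprotectin genes S100a8 and S100a9 were detected in all 3 knockout libraries and were at or near 0 in the controls. S100a8 had normalized counts of 11.8, 25.5 and 225 in knockouts S5, S6 and S7, against 1.27, 0 and 1.68 in controls S2, S3 and S4. S100a9 had 5.88, 21.9 and 115 in S5, S6 and S7, and it was at 0 in all 3 controls. For both genes every knockout library lay above every control library, and the knockout value of S7 was several times that of S5 and S6. Such groups, higher in the knockout without overlap, were found for 13.2% of all 23934 genes.

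These values stand for few reads. S100a8 had 12, 28 and 283 estimated reads in S5, S6 and S7, against 1, 0 and 2 in S2, S3 and S4, and S100a9 had 6, 24 and 144 in S5, S6 and S7. In S5 the exact 95% Poisson interval of S100a9 ran from 2.16 to 12.8 normalized counts, and the upper limits of the controls were 4.69, 4.61 and 3.10, so S5 and the controls overlapped within counting error. The ratio of S100a8 reads, knockout over control and corrected for library size, was 88.6, with an interval of 30.1 to 432 that covers counting error only. Without S7 it was 17.5 (5.57 to 88.4). With each control library set to a floor of 3 reads, the knockout mean of S100a9 was 14.1 times the mean floor. Without S7 it was 4.13 times the mean floor. These ratios leave out counting error and spread among the knockout libraries. In fits without the filter on low values the log2 fold changes were 2.45 ± 0.78 (SE) for S100a8 and 2.08 ± 0.66 for S100a9, with adjusted p-values of 0.130 for each, in a fit that called 4.13% of all genes. The exact 2-sided permutation p over libraries was 0.1 for each gene, the smallest that 3 against 3 can give.

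S100a8 had more reads than S100a9 in each knockout library, but not per length. Per kilobase of exon sequence, S100a8 stood at 17.0, 36.8 and 324 in S5, S6 and S7 and S100a9 at 11.3, 41.9 and 219, so S100a9 was the higher of the pair in S6. S100a9 made up 33.3% of the S100a8 and S100a9 reads in S5 (exact 95% binomial interval 13.3 to 59.0), 46.2% in S6 (32.2 to 60.5) and 33.7% in S7 (29.2 to 38.4). The 3 intervals overlapped. The controls, with 3 reads of S100a8 and 0 of S100a9, gave no share.

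Transcripts of neutrophils, the main store of calprotectin, stood beside these values. Ngp, a neutrophil granule protein, was at 25.5, 33.7 and 274 in S5, S6 and S7, against 1.27, 0 and 0.841 in S2, S3 and S4. It passed the filter on low values only through the 3 knockout libraries, where it was high, and its limma adjusted p was 0.0651. The lactoferrin gene Ltf was at 4.90, 19.1 and 111 in S5, S6 and S7, against 0, 0 and 1.68 in S2, S3 and S4. Both were highest in S7, as were S100a8 and S100a9. Of 12 neutrophil genes listed, 11 were in the table and 4 were tested, of which 1 rose (Mmp8) and 1 fell (Il1r2). The same fit called 6.71% of all tested genes. Mmp8, a neutrophil collagenase gene, passed the filter only through the 3 knockout libraries, where it was high, and its call was lost without any 1 control (adjusted p-values of 0.0534 to 0.125). The call of Il1r2 was lost without S6 (adjusted p = 0.0550). Retnlg, Camp and Stfa2l1 were at 0 in all controls, and Retnlg was at 0.981, 16.4 and 78.0 in S5, S6 and S7. Camp and Stfa2l1 were also near 0 in knockouts, at 0.981, 0 and 7.16 and at 0, 0 and 8.75 in S5, S6 and S7. The groups overlapped for Camp, Stfa2l1, Mpo and Elane. Csf3r and Cxcr2 were higher in the knockout without overlap, as were 13.2% of all genes. The summed level of the list was 623 to 1386 in knockouts and 1680 to 4207 in controls. The decoy interleukin receptor gene Il1r2 made up most of that sum in every library but S7, where it was at 481 of 1386. Without Il1r2, whose values were 458 to 679 in knockouts and 1658 to 4195 in controls, the list summed to 97.1, 166 and 905 in S5, S6 and S7, against 12.7, 5.00 and 21.9 in S2, S3 and S4, a sum taken after the values were seen. The part of neutrophils in the calprotectin values was not tested.

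Some other marker lists were also highest among knockouts in S7, but not all. The mast cell list was highest in S6, at 1425, 4544 and 1634 in S5, S6 and S7. The melanocyte list was highest in S5, at 2384, 2335 and 2053 in S5, S6 and S7. The pan-leukocyte gene Ptprc was at 133, 679 and 1158 in S5, S6 and S7, against 36.9, 36.2 and 579 in S2, S3 and S4. The macrophage and monocyte list summed to 2274, 2764 and 13434 in S5, S6 and S7, against 1430, 1663 and 3032 in S2, S3 and S4. The keratinocyte list summed to 4704, 4394 and 30608 in S5, S6 and S7, against 8323, 1238 and 36592 in S2, S3 and S4. The fat cell list summed to 755, 2533 and 10444 and the endothelial list to 1495, 2097 and 6151 in S5, S6 and S7. In S2, S3 and S4 they summed to 531, 565 and 288 and to 1591, 1345 and 2216. In control S4, Krt5 was at 11805, Ptprc at 579, Ngp at 0.841, Ltf at 1.68, S100a8 at 1.68 and S100a9 at 0. The part of these cell types in the calprotectin values was not tested.

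**Figure D2:**
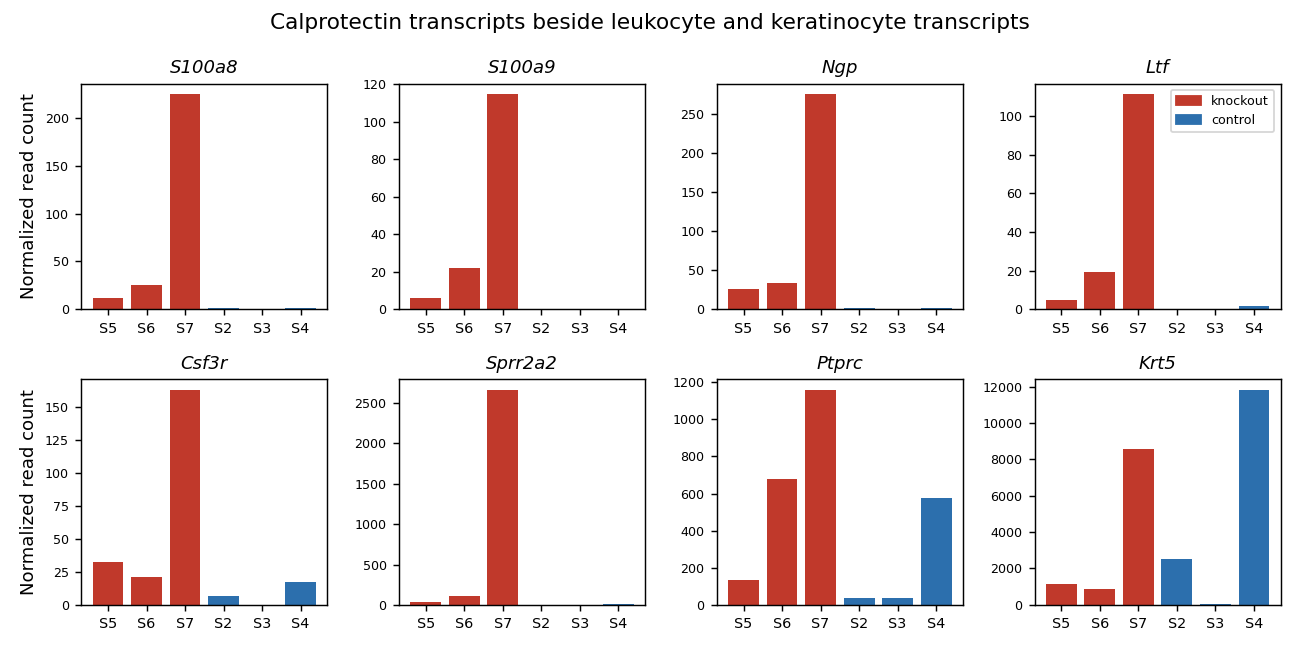
Normalized read counts of S100a8 and S100a9 beside the neutrophil genes Ngp, Ltf and Csf3r, the cornified envelope gene Sprr2a2, the leukocyte gene Ptprc and the keratinocyte gene Krt5, 1 bar per library, knockouts in red and controls in blue. S7 is the highest library for the first 7 genes, while Krt5 is highest in control S4 at 11805.

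Of all tested genes, the 3 whose log2 level followed S100a8 most closely over the 6 libraries were Mgll, Sprr2a2 and Eif3i, with Pearson r of 0.997, 0.996 and 0.996, given as a description over libraries that share these cell differences. Sprr2a2, a small proline-rich protein gene of the same complex, was at 41.2, 115 and 2661 in S5, S6 and S7, against 0, 0 and 5.05 in S2, S3 and S4. Its related copies may share reads with it. Mgll, which encodes monoglyceride lipase, was at 1236, 1508 and 5120 in S5, S6 and S7, against 827, 678 and 868 in S2, S3 and S4. In both genes, as in S100a8, S7 stood far above the other libraries.

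Per length, the most abundant members in both groups were S100a4, S100a6, S100a10 and S100a11, which bind non-muscle myosin or annexins. S100a4, known from fibroblasts and motile cells, had normalized counts of 1557, 1344 and 1925 in knockouts S5, S6 and S7, against 2126, 2163 and 749 in controls S2, S3 and S4. The knockouts lay inside the control range, and control S4 was the lowest library. The log2 fold change was 0.073 ± 0.40 (SE, limma adjusted p = 0.936), with a 95% interval of -0.87 to 1.01. Its direction depended on single libraries, at -0.43 without S4 and -0.063 without S7. The summed fibroblast list, mostly collagen genes, was 924757 to 1223950 in knockouts and 2988990 to 8923440 in controls, lowest of these in S4. Without the 3 collagen genes it was 190673, 158701 and 133893 in S5, S6 and S7. In S2, S3 and S4 it was then 286372, 363442 and 153700. The part of fibroblasts in the S100a4 values was not tested.

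S100a6, or calcyclin, was among the steadiest members, at 2962, 2399 and 3085 in S5, S6 and S7 and at 3016, 2287 and 2464 in S2, S3 and S4. The groups overlapped almost fully (log2 fold change 0.12 ± 0.18, adjusted p = 0.730, 95% interval -0.29 to 0.54).

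S100a10, the p11 subunit that pairs with annexin A2, was lower in all knockout libraries. It had 2281, 1963 and 1833 normalized counts in S5, S6 and S7, against 4075, 3153 and 2341 in S2, S3 and S4. The groups did not overlap, though knockout S5 and control S4 differed by little. The log2 fold change was -0.62 ± 0.22 (SE), with a 95% interval of -1.14 to -0.10 and a limma adjusted p of 0.152. Leaving out control S4 gave -0.83 with an adjusted p of 0.0485, and the adjusted p-values ranged from 0.0485 to 0.386 over the fits that left out 1 library. Its partner gene Anxa2 was at 5502, 3066 and 5097 in S5, S6 and S7, against 8453, 9475 and 6119 in S2, S3 and S4 (-0.84 ± 0.28, adjusted p = 0.129), also without overlap. The log2 ratio of S100a10 to Anxa2 was -1.13 ± 0.43 in knockouts and -1.34 ± 0.27 in controls (SD, n = 3 each; exact permutation p = 0.6), and the ranges overlapped. With libraries scaled to a common total, the log2 fold change of S100a10 was -0.30 with an adjusted p of 0.414. The summed fibroblast list was also lower in every knockout library, a sum made up mostly of the 3 collagen genes, while of its other genes Pdgfra was higher in the knockout (1.24 ± 0.21, adjusted p = 0.0165). The part of fibroblasts in the S100a10 values was not tested.

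S100a11, an annexin A1 binding protein of keratinocytes and fibroblasts, showed the opposite direction. It was at 656, 562 and 591 in S5, S6 and S7 and at 521, 486 and 442 in S2, S3 and S4. Every knockout library was above every control library by a small margin, with a log2 fold change of 0.31 ± 0.15 (SE), a 95% interval of -0.037 to 0.67 and an adjusted p of 0.263. With a common library total the log2 fold change was 0.63 (adjusted p = 0.108). Its annexin partner gene Anxa1 differed little, at 0.070 ± 0.18 (adjusted p = 0.853).

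S100a16, a broadly expressed member of low calcium affinity, was at 992, 563 and 909 in S5, S6 and S7, against 1224, 1058 and 1199 in S2, S3 and S4. The groups did not overlap, and S6 was the lowest library. The log2 fold change was -0.53 ± 0.23 (SE, adjusted p = 0.216), or -0.28 without S6 and -0.21 with libraries scaled to a common total.

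S100a13 takes part in the release of fibroblast growth factor 1, and S100a1 regulates calcium handling in heart and skeletal muscle. Their genes start 42 bases apart on opposite strands in the table's coordinates. S100a13 was at 118, 91.1 and 95.5 in S5, S6 and S7 and at 154, 111 and 100.1 in S2, S3 and S4. S100a1 was at 133, 153 and 231 in S5, S6 and S7 and at 248, 171 and 183 in S2, S3 and S4. The groups overlapped for both. The log2 fold changes were -0.23 ± 0.24 for S100a13 (adjusted p = 0.618) and -0.23 ± 0.26 for S100a1 (adjusted p = 0.654), and both turned positive when libraries were scaled to a common total, at 0.067 and 0.079. The skeletal muscle list, which marks a known source of S100a1, summed to 731 to 1558 in knockouts and 1486 to 8108 in controls, and its part was not tested.

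S100b, a marker of Schwann cells and melanocytes that fat cells also express, was low in all libraries. It had 11.8, 10.03 and 16.7 normalized counts in S5, S6 and S7, against 31.8, 19.98 and 35.3 in S2, S3 and S4, or 12, 11 and 21 reads against 25, 16 and 42. The groups did not overlap, but the Poisson intervals of knockouts S5 (6.08 to 20.6) and S7 (10.3 to 25.5) covered the value of control S3. S100b reached the filter in 3 libraries, S2, S4 and S7, and was not tested without any 1 of them. The log2 fold change was -0.78 ± 0.32 (SE), with a 95% interval of -1.54 to -0.029 and an adjusted p of 0.202. S100b overlaps Dip2a on the other strand by 1731 bases in the table's coordinates. No source says whether reads were counted by strand, so its reads may be in part those of Dip2a, which averaged 1100 ± 63.5 in knockouts and 992 ± 93.9 in controls. The Schwann cell list summed to 1437 to 1944 in knockouts and 1129 to 1925 in controls. The melanocyte list summed to 2053 to 2384 in knockouts and 1074 to 2000 in controls, mostly Mitf. The fat cell list summed to 755 to 10444 in knockouts and 288 to 565 in controls. The part of these cells in the S100b values was not tested. The 3 tested genes closest to S100b in pattern were Pafah1b3, Gm45871 and 2210016L21Rik, with Pearson r of 0.994, 0.991 and 0.986 over the 6 libraries.

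**Figure D3:**
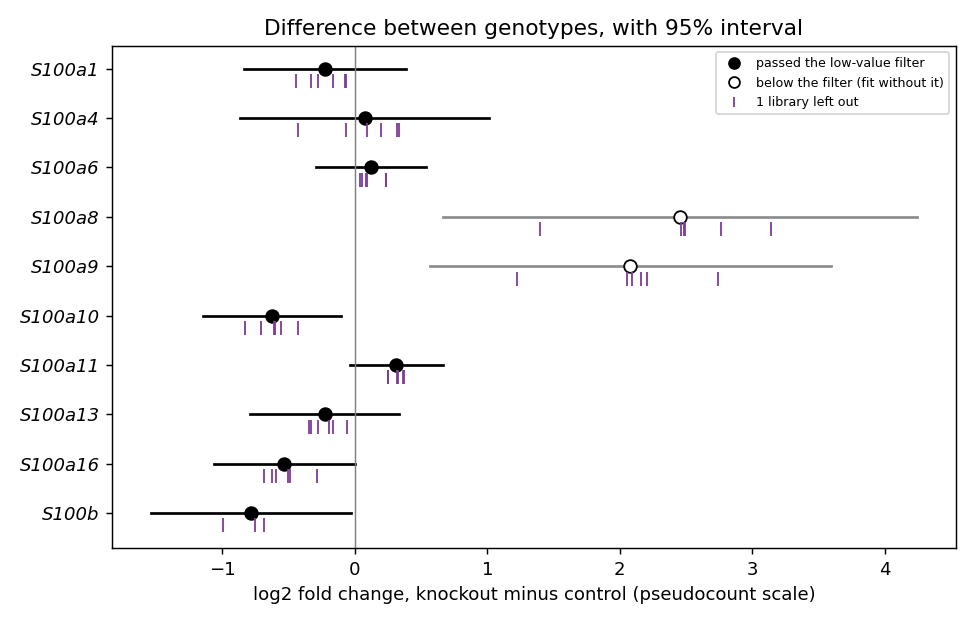
Log2 fold change, knockout minus control, of each S100 gene with its 95% interval from limma; open circles are the 2 genes below the filter on low values, fitted without it, and purple ticks are fits that leave out 1 library. The filled points lie between -0.78 and 0.31, and S100a8 and S100a9 lie at 2.45 and 2.08 with wide intervals.

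Per kilobase of exon sequence (GENCODE M21 lengths), S100a4 led in both groups, and the groups' orders differed in the places of S100a6, S100a10, S100b and the calprotectin genes. In knockouts the order was S100a4, S100a6, S100a10, S100a11, S100a16, S100a1, S100a13, S100a8, S100a9 and S100b. Mean levels per kilobase in knockouts were 2754 ± 503 for S100a4, 1180 ± 94.6 for S100a11, 142 ± 19.9 for S100a13 and 126 ± 172 for S100a8 (SD, n = 3). Library ranges of neighbours in that order overlapped for S100a6 and S100a10, for S100a13 and S100a8 and for S100a8 and S100a9. In controls the order was S100a4, S100a10, S100a6, S100a11, S100a16, S100a1, S100a13, S100b, S100a8 and S100a9. Mean levels per kilobase in controls were 2876 ± 1380 for S100a4, 945 ± 77.8 for S100a11, 170 ± 39.6 for S100a13 and 1.42 ± 1.26 for S100a8 (SD, n = 3). Neighbours whose ranges overlapped were S100a4 and S100a10, S100a10 and S100a6, and S100a8 and S100a9. Per kilobase, S100a10 thus stood above S100a6 in all 3 controls and below it in all 3 knockouts, a comparison chosen after the values were seen and given without a test. These orders depend on the exon lengths used. In counts not scaled to length, control S4 had 2464 for S100a6 and 2341 for S100a10. Mean counts of S100a4 were 1608 in knockouts and 1680 in controls, below the 2815 and 2589 of S100a6.

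**Figure D4:**
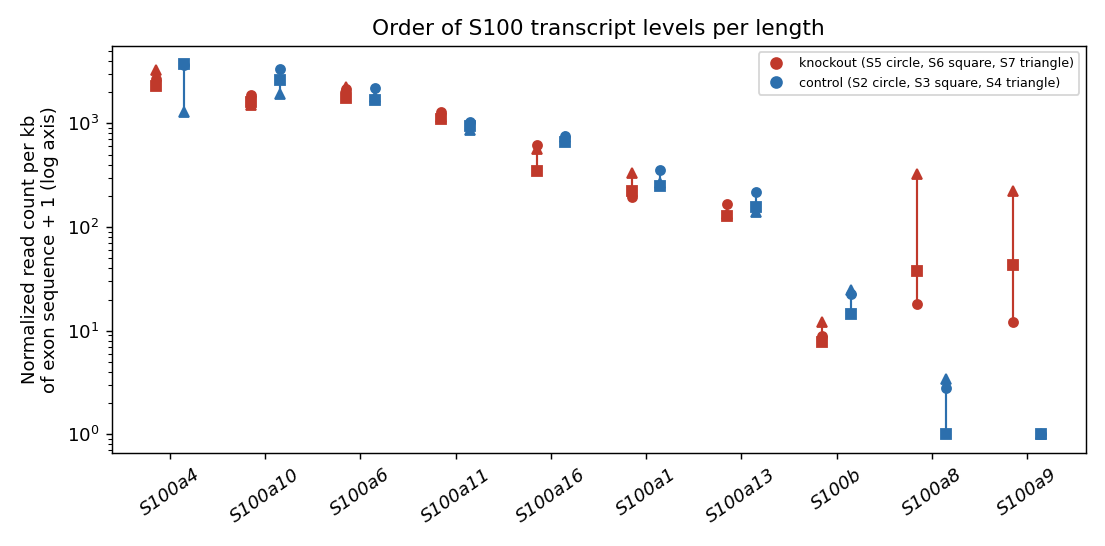
Normalized read count per kilobase of exon sequence plus 1, on a log axis, for each S100 gene by library, ordered by the control mean, with lines joining the lowest and highest library of a group. The first 7 genes keep levels above 100 per kilobase in both groups, whereas S100a8 and S100a9 lie at 17.0 to 324 and 11.3 to 219 in knockouts and at 0 to 2.42 and 0 in controls.

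Of 9 further S100 genes listed, 5 were in the table and only S100a14, an epithelial member, was tested. S100a14 was at 47.1, 61.1 and 290 in S5, S6 and S7, against 89.0, 16.2 and 415 in S2, S3 and S4 (log2 fold change 0.054 ± 1.04, adjusted p = 0.981). It was highest in S4 and S7 and lowest in S3, the same libraries as for Krt5. S100a3, a hair cuticle protein gene, was at 2.94, 0.911 and 3.98 in S5, S6 and S7, against 8.90, 5.00 and 58.9 in S2, S3 and S4. S100a7a, the mouse relative of psoriasin, was at 6.36 to 23.5 in knockouts and 12.5 to 18.5 in controls. S100g, which encodes calbindin-D9k, was at 6.36 to 7.84 in knockouts and 0 to 0.841 in controls, and S100a5 was at 0 to 4.56 in knockouts and 0 to 2.50 in controls. These 4 genes were below the filter and are named outside the rule for naming genes, after their values were seen. None of them reached an adjusted p of 0.05 in the limma fit without the filter, and the lowest was 0.0622 for S100g.

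Neighbours of the S100 genes in the epidermal differentiation complex were mostly near 0 in these cells. Of 43 further genes of the complex listed, 13 were in the table and 1 was tested, Sprr2a2, with a log2 fold change of 4.59 ± 1.30 and an adjusted p of 0.0835. It passed the filter only through the 3 knockout libraries, where it was high. The 13 genes summed to 48.0, 160 and 2894 in S5, S6 and S7, against 25.4, 5.00 and 40.4 in S2, S3 and S4. Sprr2a2 alone made up most of that sum in every knockout, at 41.2, 115 and 2661 in S5, S6 and S7. Of 7 genes with an S100 domain fused to a long repeat, the filaggrin family, only Tchh was in the table, at 39.4 to 50.7 in knockouts and 58.4 to 203 in controls (adjusted p = 0.187).

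Among 10 genes of surface receptors for released S100 proteins and of their adaptors, 1 rose and 0 fell, with a median log2 fold change of 0.24. For comparison, 4.12% of all tested genes were called higher and 2.59% lower. The gene that rose was Cd14, a coreceptor of Tlr4, at 200.04, 209 and 664 in S5, S6 and S7, against 49.6, 77.4 and 80.7 in S2, S3 and S4 (2.02 ± 0.46, adjusted p = 0.0450). The call held without S7 (adjusted p = 0.0470) and was lost without any 1 of the others, at adjusted p-values of 0.05003 to 0.166. Cd14 is also a macrophage gene. The macrophage and monocyte list summed to 2274, 2764 and 13434 in S5, S6 and S7, against 1430, 1663 and 3032 in S2, S3 and S4. The part of macrophages in the Cd14 values was not tested. Tlr4, at 1544 to 1739 in knockouts and 990 to 1242 in controls, and Ager, at 18.3 to 28.4 in knockouts and 49.6 to 67.4 in controls, had groups that did not overlap and adjusted p-values of 0.0582 and 0.0573. In this list 2 genes were higher and 3 lower in the knockout without overlap, where 28.8% of all tested genes had groups without overlap.

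Partner genes showed 1 rise. Of 10 tested annexins 0 rose and 0 fell (median log2 fold change -0.36; 0 also in the limma fit without the filter, and 3 at an unadjusted p under 0.05), with knockout values below controls without overlap in Anxa2 and Anxa3 and above them in Anxa8. Over all tested genes, 6.71% were called, 23.2% had an unadjusted p under 0.05 and 28.8% had groups without overlap. Of 13 other tested binding partners 1 rose and 0 fell. It was Myh9, the non-muscle myosin heavy chain that S100a4 binds, at 12094, 12052 and 14541 in S5, S6 and S7, against 5014, 4344 and 7284 in S2, S3 and S4 (1.25 ± 0.24, adjusted p = 0.0255). Without S4 the adjusted p was 0.0105, and without any 1 of the other libraries it was 0.0538 to 0.123. S100a4 itself did not differ beyond the spread between libraries.

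Plasminogen activation, which S100a10 and annexin A2 promote at the cell surface, had 2 of 5 tested genes higher and 0 lower. Calls over all tested genes were 4.12% higher and 2.59% lower, and groups did not overlap for 28.8%. The protease inhibitor gene Serpine2 rose to 2516, 5522 and 4006 in S5, S6 and S7, against 494, 194 and 366 in S2, S3 and S4 (3.51 ± 0.39, adjusted p = 0.00395; at most 0.0268 without any 1 library). The tissue plasminogen activator gene Plat rose to 3020 to 4469 in knockouts, against 1219 to 2237 in controls (1.11 ± 0.26, adjusted p = 0.0467). Without S4 Plat had an adjusted p of 0.0257, and without any 1 of the other libraries it had 0.0791 to 0.149. The urokinase gene Plau was at 757 to 1088 in knockouts and 1248 to 1989 in controls, without overlap (-0.81 ± 0.23, adjusted p = 0.0840).

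Among known regulators of S100a8 and S100a9, 2 of 11 tested genes rose and 0 fell, with a median log2 fold change of 0.82. The shares over all tested genes were 4.12% higher and 2.59% lower. Cebpd, a C/EBP transcription factor of inflammation, was at 9132, 12749 and 8252 in S5, S6 and S7, against 4640, 5095 and 4072 in S2, S3 and S4 (1.10 ± 0.22, adjusted p = 0.0283), a call lost without any 1 library at 0.0504 to 0.120. Il17ra, a receptor chain for interleukin 17, was at 1889 to 2768 in knockouts and 1139 to 1404 in controls (0.89 ± 0.19, adjusted p = 0.0379). Its call held without S7 (adjusted p = 0.0351) and was lost without any 1 of the others, at 0.0521 to 0.143. Il1b was at 84.3, 149 and 460 in S5, S6 and S7, against 19.1, 11.2 and 84.1 in S2, S3 and S4 (2.34 ± 0.73, adjusted p = 0.107), and like S100a8 it was highest in S7.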

How the data were processed

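Per the file headers, the authors deposited 1 table of normalized read counts, treated here as a signal: reads divided by 1 size factor per library (0.787 to 1.26), not scaled to gene length. This is read from the values, of which 78.3% to 80.5% up to 1000 reads per library are whole multiples of 1 step within 0.05 reads. TopHat2 2.1.0 and Partek 9.0.20.0202 were used per the submitters' processing notes, with roles unstated. No source names the genome build or the use of strand. Because the values are only partly whole reads, no count model was run.

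Differences were tested across all genes with limma 3.58.1 in R 4.3.3 (2-sided moderated test, variance trend on level) after adding a pseudocount of 9.15, or 0.5 in 1000000 of the average library total, and taking log2. Genes needed 1 per 1000000 in at least 3 libraries, and Benjamini-Hochberg adjusted p under 0.05 was the threshold. Fold changes on this scale understate those of low genes. Single values were compared by exact permutation tests. Alternatives were other pseudocounts, filters, scaling and variance models and leaving out each library.

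Members and lists were chosen with earlier results of these data known. The rule for naming genes took all members, up to 4 called genes of each pathway list (or the 2 highest), the 2 highest of each marker list and the 3 genes closest in pattern to S100a8 and S100b. Further genes, among them Ltf, Retnlg, Ptprc, Il1b, Tlr4, Ager and Dip2a, were named after their values were seen. The erythrocyte list had 0 tested. Column names give the group and a number (UB1 to UB3 for knockouts, UB2 to UB4 for controls) that matches no single sample title. No label says outright that libraries are separate mice, so p-values reflect spread among libraries that may be in part technical. Promoters are from RefSeq (GRCm38.p6) and exon lengths from GENCODE M21, matched for 9 and 10 members. Intervals and floors cover counting error only.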

Additional observations from a re-analysis of the deposited data

How the results depend on the processing

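Over other pseudocounts, filters, a common library total and no intensity trend, 0 S100 members were called; leaving out 1 library gave 0 to 1, the 1 being S100a10 without control S4 (adjusted p = 0.0485). S100a9, fitted without the filter, passed with the lower pseudocount (log2 fold change 3.92, adjusted p = 0.0483) or without S5 (2.74, adjusted p = 0.0393). Scaling to a common total moved the median log2 fold change by 0.31 and turned S100a1 to 0.079 and S100a13 to 0.067. It gave 1057 genes higher and 283 lower, or 78.9% higher against 61.4% as deposited. S100a4 ran from -0.43 (without S4) to 0.33 over fits without 1 library, with -0.063 without S7. The S100a10 to Anxa2 difference ran from -0.029 (without S6) to 0.39. The count of 1070 genes changed ran from 270 to 1237 when 1 library was left out: 307 without S2, 545 without S3, 270 without S6 and 435 without S7. Of 120 member fold changes under alternatives, 111 kept their direction and side of the threshold. The columns carry header numbers that match no sample title, and UB2 (S6 and S2) and UB3 (S7 and S3) occur in both groups. A fit with these numbers as a replicate block, chosen after seeing the data, rests on those 2 pairs alone. It called 1527 genes and 1 member, S100a10 (log2 fold change -0.91, adjusted p = 0.0458), and turned S100a4 to -0.41. Deviations from the group means correlated at 0.25 for UB2 and -0.22 for UB3 over genes. What the number means is not stated, and whether libraries with the same number share a batch was not tested. Count models were not run, since the values are not all whole reads. S100a8 relative to S100a9 was not tested, both being under the filter. Depth limits S100a8, S100a9 and S100b, where a floor of 3 reads is a normalized count of 2.39 to 3.81.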
